A study of Mus musculus with 4 samples.

Results

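The cytochrome P450 genes of the mouse colon were followed across 4 single-colour Agilent arrays, 1 for each combination of genotype and treatment. Members were the genes whose name in the array design reads Cyp, a family number, a subfamily letter and a gene number. Cyp24a1 and Cyp27b1, vitamin D hydroxylases, were left out. A member also had to be well above background on at least 1 array. Of 92 such genes on the array, 69 were measured, among 22173 genes measured in all, and 61 of the 69 were well above background on all 4 arrays. The 4 groups were KO DSS, WT DSS, KO naive and WT naive. KO mice lack Pla2g10, the gene of a secreted phospholipase A2 (group X) that cleaves fatty acids off membrane lipids, and WT mice carry the intact gene. DSS is dextran sulfate sodium, which injures the colon lining and causes colitis, given at 1% (w/v) in the drinking water with colons taken on day 7, while naive mice had none. All mice were C57BL/6, taken to be males of 9 weeks because the age and sex labels appear to be swapped (the housing notes give 8 weeks), and the RNA on an array was a pool of 3 colons.

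Cytochrome P450 enzymes are haem proteins that insert oxygen into their substrates, drawing electrons from P450 oxidoreductase in the endoplasmic reticulum or from ferredoxin in mitochondria. Families 1 to 3 are known for the oxidation of drugs and other foreign compounds, family 4 for the omega-hydroxylation of fatty acids and eicosanoids, and the higher families for sterols, bile acids, steroid hormones and retinoic acid. Several family 2 enzymes also turn arachidonic acid into epoxides. The gut epithelium carries its own set of these enzymes, and they meet compounds from food and bacteria before the liver does.

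With 1 array per group, no ratio between single groups has a replicate check, and none carries a p-value. Values are relative signals, in which 1 equals the 75th percentile of the array. Between 67.7% and 70.4% of spots were well above background on each array, and repeat spots of a probe differed with a median log2 SD of 0.0618 to 0.0718, which measures the array and leaves out differences between mice. Pla2g10, the targeted gene, had a relative signal of 0.997 in KO DSS, 19.1 in WT DSS, 1.7 in KO naive and 15.9 in WT naive. Markers of colonic epithelium were bright on all 4 arrays, as shown by Car1, a carbonic anhydrase of absorptive colonocytes, at 78.4 in KO DSS, 110 in WT DSS, 113 in KO naive and 95.5 in WT naive. Markers of other cells moved with DSS. The 8 macrophage markers lay above naive in both genotypes, with medians of 1.98 in KO and 0.85 in WT on the log2 scale. For 7 adipocyte markers the medians were 1.79 in KO and 2.87 in WT. Of 8 pancreatic acinar markers, 6 were at least 2-fold higher with DSS in KO and 7 in WT. In mixed tissue, fewer cells of a type and less RNA per cell cannot be told apart, which holds for every P450 value below.

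P450 genes were more often lower than higher after DSS, and more so in KO colon. In KO DSS over KO naive, 22 of 69 members were at least 2-fold lower, where 4.99% of all genes were, and 6 were at least 2-fold higher, where 5.67% of all genes were. In WT DSS over WT naive, 11 members were lower against a background of 5.22%, and 2 were higher against 3.41%. The median log2 ratio of the members was -0.47 in KO and -0.29 in WT, beside -0.13 and -0.02 over all genes. Of the members lower in WT, 9 were also lower in KO, and the other 2 were Cyp11b1 and Cyp26b1. A further 13 passed 2-fold in KO only. All 22 genes lower in KO had a ratio below 0 in WT and a deeper one in KO. For Cyp2b10 this rests on signals that were not well above background. The 22 were picked by their KO ratio, which favours a deeper value in KO, so their depth is a description only. The matching share over all genes lower in KO is not given. The KO response lay below the WT response for 50 of 69 members (72.5%), compared with 59.3% of all genes, and the median difference was -0.44 for members and -0.10 for all genes. With 4 arrays this difference of responses could not be tested. Of the 23 members whose mean signal was above the 75th percentile, 12 were at least 2-fold lower in KO DSS and 3 in WT DSS, beside 2.36% and 1.14% of the 8267 genes as bright. Their median log2 ratio was -1.03 in KO and -0.49 in WT, and that of all such genes was -0.07 in KO and 0.13 in WT. The plot of KO against WT responses shows most family 2 genes below the line of equal response.

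**Figure D1:**
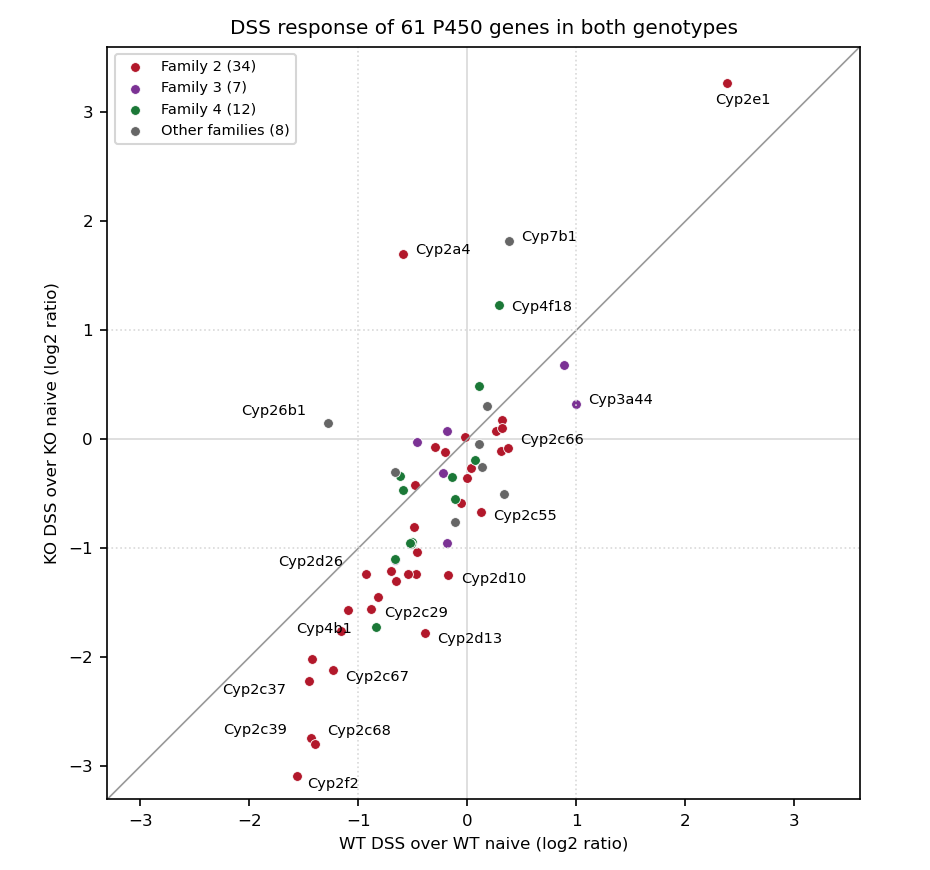
Each point is 1 of the 61 P450 genes measured on each of the 4 arrays, with the WT log2 ratio of DSS over naive on the x axis and the KO ratio on the y axis, coloured by family. The solid line marks equal responses and the dotted lines 2-fold; Cyp2f2, Cyp2c68 and Cyp2c39 lie lowest and Cyp2e1 highest.

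The Cyp2c genes, which oxidise drugs and form epoxides from arachidonic acid, lie on chromosome 19, all but Cyp2c44 in a cluster. All 13 on the array were measured. Their responses to DSS were unlike each other. Of the 13, 7 were at least 2-fold lower in KO DSS (4.99% of all genes) and 6 in WT DSS (5.22%). Cyp2c55, Cyp2c65 and Cyp2c66, which sit side by side at 1 end of the cluster, were not among them. The promoter windows below are shown so that these 3 neighbours can be set beside Cyp2c29, Cyp2c67 and Cyp2c68, which were lower, and beside Cyp2e1, which was higher. Each is the 250 bases before the RefSeq start of the gene in GRCm38.p6, written 5′ to 3′ on the strand of the gene, with the letters TATAAA and CAAAGTCC in capitals where they occur on that strand. CAAAGTCC is the core of sequences known to bind HNF4, a nuclear receptor of gut and liver epithelium. The windows lie at chr19:39006769-39007018 (plus strand), chr19:39060756-39061005 (plus strand), chr19:39113648-39113897 (plus strand), chr19:39286835-39287084 (plus strand), chr19:39649043-39649292 (minus strand), chr19:39741102-39741351 (minus strand) and chr7:140763569-140763818 (plus strand).
Cyp2c55: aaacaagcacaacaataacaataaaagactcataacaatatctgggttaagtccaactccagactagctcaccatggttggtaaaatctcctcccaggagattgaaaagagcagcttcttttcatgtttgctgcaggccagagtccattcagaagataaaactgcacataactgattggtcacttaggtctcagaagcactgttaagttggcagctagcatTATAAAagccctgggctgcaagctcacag
Cyp2c65: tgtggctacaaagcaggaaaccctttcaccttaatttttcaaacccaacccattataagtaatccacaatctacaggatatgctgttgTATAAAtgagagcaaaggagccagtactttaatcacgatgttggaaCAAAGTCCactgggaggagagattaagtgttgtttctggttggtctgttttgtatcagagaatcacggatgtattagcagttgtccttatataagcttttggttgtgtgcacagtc
Cyp2c66: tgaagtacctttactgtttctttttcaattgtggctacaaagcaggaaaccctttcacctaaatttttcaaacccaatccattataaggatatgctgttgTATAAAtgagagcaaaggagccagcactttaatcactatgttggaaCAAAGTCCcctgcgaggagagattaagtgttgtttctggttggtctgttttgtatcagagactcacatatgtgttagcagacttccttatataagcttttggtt
Cyp2c29: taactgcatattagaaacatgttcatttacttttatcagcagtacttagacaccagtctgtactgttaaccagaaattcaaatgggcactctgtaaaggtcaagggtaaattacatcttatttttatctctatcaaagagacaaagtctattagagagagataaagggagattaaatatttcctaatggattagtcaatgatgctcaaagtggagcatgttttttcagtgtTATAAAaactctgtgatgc
Cyp2c67: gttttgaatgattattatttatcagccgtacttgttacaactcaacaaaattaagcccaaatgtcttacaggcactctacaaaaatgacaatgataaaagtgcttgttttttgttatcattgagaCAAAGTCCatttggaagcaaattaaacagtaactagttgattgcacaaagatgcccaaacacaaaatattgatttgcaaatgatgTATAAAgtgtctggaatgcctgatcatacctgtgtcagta
Cyp2c68: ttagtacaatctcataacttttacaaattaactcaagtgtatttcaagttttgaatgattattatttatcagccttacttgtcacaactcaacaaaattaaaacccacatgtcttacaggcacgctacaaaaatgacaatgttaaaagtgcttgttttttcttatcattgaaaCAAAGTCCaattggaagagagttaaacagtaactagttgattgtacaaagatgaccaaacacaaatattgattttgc
Cyp2e1: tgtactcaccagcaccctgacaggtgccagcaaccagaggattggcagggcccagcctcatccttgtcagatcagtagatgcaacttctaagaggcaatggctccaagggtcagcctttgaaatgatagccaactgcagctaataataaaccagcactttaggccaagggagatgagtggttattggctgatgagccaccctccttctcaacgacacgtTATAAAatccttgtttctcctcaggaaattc

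CAAAGTCC, searched on both strands, lay 116 bases before the start of Cyp2c65, 104 before Cyp2c66, 125 before Cyp2c67 and 77 before Cyp2c68. It was not in the windows of Cyp2c55, Cyp2c29 or Cyp2e1. The letters thus stood in windows of Cyp2c genes that were lower and of Cyp2c genes that were not. Of 50 members with a promoter in the RefSeq table, 10 held CAAAGTCC (20%), beside 393 of 32851 promoter windows of all genes (1.2%). They were Cyp2a4, Cyp2c65, Cyp2c66, Cyp2c67, Cyp2c68, Cyp2c70, Cyp3a11, Cyp3a16, Cyp3a41b and Cyp4f18. Among the members at least 2-fold lower in KO DSS, 2 of 16 held it, and among the others 8 of 34. These promoters are not independent, since they descend from shared ancestors: aligned end to end, the windows of Cyp2c65 and Cyp2c66 were identical in 74.6% of columns, and those of Cyp2c67 and Cyp2c68 in 63.1%. TATAAA, searched on both strands, stood in 20 of the 50 members (40%) and in 12.4% of all windows. The 2 motifs share no letters in these windows. The choice of CAAAGTCC was made after the sequences had been read, so its share is a description only.

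Cyp2c55, an epoxygenase and hydroxylase of arachidonic acid that is typical of the large intestine, had a relative signal of 28.1 in KO DSS, 45.4 in WT DSS, 44.6 in KO naive and 41.6 in WT naive (probe at chr19:39116674-39116733, mm9). KO DSS stood apart from the other 3 pools, with a log2 ratio of -0.67 over KO naive and of -0.69 over WT DSS, while WT DSS over WT naive was 0.13. Cyp2c65 had 10.8 in KO DSS, 12.9 in WT DSS, 11.6 in KO naive and 10.4 in WT naive. Cyp2c66 had 14.6 in KO DSS, 18.2 in WT DSS, 15.5 in KO naive and 14.0 in WT naive. For both, WT DSS was the highest pool, and all 4 values of each gene lay within 1.5-fold.

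Further along chromosome 19 lay the 7 genes that were at least 2-fold lower in KO. Cyp2c68 had a relative signal of 0.95 in KO DSS, 2.78 in WT DSS, 6.58 in KO naive and 7.32 in WT naive (probe at chr19:39763420-39763479, mm9). It was 6.93-fold lower in KO DSS than in KO naive and 2.63-fold lower in WT DSS than in WT naive. Cyp2c67 had 2.18 in KO DSS, 4.66 in WT DSS, 9.47 in KO naive and 10.96 in WT naive (probe at chr19:39683541-39683600, mm9). It was 4.35-fold lower in KO and 2.35-fold lower in WT, and a second probe gave log2 ratios of -2.94 in KO and -1.54 in WT. Both genes ranked the pools alike, with KO DSS lowest, WT DSS next and the naive pools highest. Cyp2c39, known in mouse as a retinoic acid hydroxylase, had 0.0239 in KO DSS, 0.073 in WT DSS, 0.159 in KO naive and 0.197 in WT naive. It was 6.67-fold lower in KO and 2.7-fold lower in WT.

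Cyp2c54 had 0.0933 in KO DSS, 0.205 in WT DSS, 0.378 in KO naive and 0.549 in WT naive, which was 4.05-fold lower in KO and 2.68-fold lower in WT. The Cyp2c54 result rests on this probe alone. The other probes of the gene were not well above background on any array, with at most 0.00366. Cyp2c37 had 0.0491 in KO DSS, 0.107 in WT DSS, 0.229 in KO naive and 0.293 in WT naive, 4.66-fold lower in KO and 2.73-fold lower in WT. Its other probe disagreed, with log2 ratios of -0.40 in KO and 0.09 in WT. In Cyp2c44, which lies apart from the cluster (probe at chr19:44079535-44079594, mm9), the log2 ratios were -1.57 in KO and -1.09 in WT. In Cyp2c29, an epoxygenase read by repeated spots, they were -1.56 in KO and -0.88 in WT. Cyp2c38 and Cyp2c70 stayed within 1.5-fold in both genotypes, and Cyp2c50 was well above background in WT DSS alone, at 0.0116. The cluster thus held, in map order, 3 genes within 2-fold of naive at one end and most of the lower genes in its middle, as drawn in the plot by map order. This grouping was made after the values were seen.

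**Figure D2:**
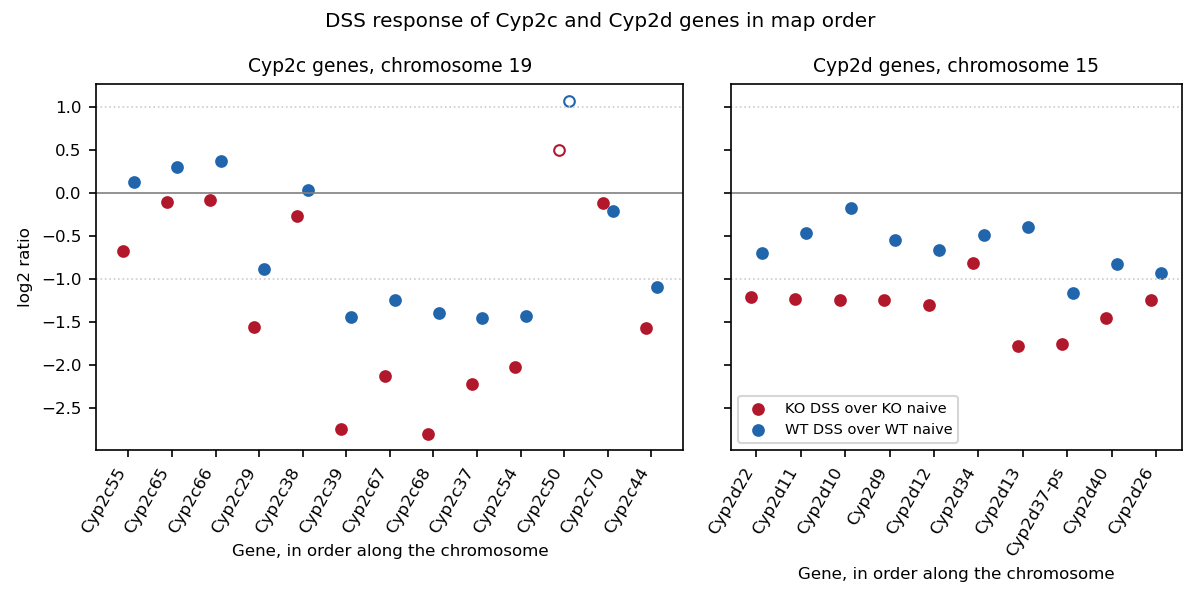
The log2 ratio of DSS over naive is plotted for the 13 Cyp2c and the 10 Cyp2d genes in their order along the chromosome, KO in red and WT in blue, with an open symbol for Cyp2c50, which was well above background on 1 array only. Cyp2c65 and Cyp2c66 lie near 0 and Cyp2c55 at -0.67 in KO and 0.13 in WT, and all 10 Cyp2d genes lie below 0 in both genotypes.

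The Cyp2d genes, whose enzymes oxidise many amine drugs, moved as a block. All 10 on chromosome 15 had a ratio below 0 in both genotypes, with a median log2 ratio of -1.24 in KO and -0.60 in WT. In KO DSS, 9 of 10 were at least 2-fold lower (4.99% of all genes), and in WT DSS 1 of 10 (5.22%), the pseudogene Cyp2d37-ps. Cyp2d34 had a relative signal of 12.8 in KO DSS, 15.2 in WT DSS, 22.3 in KO naive and 21.3 in WT naive, and was the member that missed 2-fold in KO, at -0.81. Cyp2d11 had 5.31 in KO DSS, 8.79 in WT DSS, 12.5 in KO naive and 12.1 in WT naive. In both, the DSS pools lay below the naive pools, with KO DSS lowest. Cyp2d13 had 0.0466 in KO DSS, 0.135 in WT DSS, 0.159 in KO naive and 0.177 in WT naive (probe at chr15:82469006-82469065, mm9). Cyp2d10 had 2.61 in KO DSS, 5.82 in WT DSS, 6.18 in KO naive and 6.56 in WT naive. Here KO DSS alone stood apart: Cyp2d13 was 3.42-fold lower in KO and 1.31-fold lower in WT, and Cyp2d10 2.37-fold lower in KO and 1.13-fold lower in WT. The remaining genes, Cyp2d9, Cyp2d12, Cyp2d22, Cyp2d26 and Cyp2d40, had log2 ratios from -1.45 to -1.21 in KO and from -0.93 to -0.55 in WT. Gene copies of this family are alike in sequence, and how far 1 probe also reads the transcripts of its neighbours was not tested.

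Among the other family 2 genes, Cyp2f2, which oxidises naphthalene and is best known from the airway, had the lowest DSS ratio in KO of the members measured on all 4 arrays. It had a relative signal of 0.38 in KO DSS, 1.22 in WT DSS, 3.22 in KO naive and 3.62 in WT naive (probe at chr7:27918570-27918629, mm9). The gene was 8.48-fold lower in KO DSS than in KO naive and 2.96-fold lower in WT DSS than in WT naive. Cyp2b10, the classic target of the receptor CAR, had 0.00314 in KO DSS and 0.0123 in WT DSS, neither well above background, against 0.0651 in KO naive and 0.0853 in WT naive. It was at least 4.59-fold lower in KO and at least 6.96-fold lower in WT, where the lowest well-measured signal of an array, or the dim signal itself if higher, stood for the dim value. Cyp2s1, which metabolises retinoids and eicosanoids, had 10.02 in KO DSS, 13.1 in WT DSS, 20.5 in KO naive and 17.98 in WT naive, with log2 ratios of -1.03 in KO and -0.46 in WT. Its KO call was lost with median scaling (-0.96), quantile normalization (-0.99) and normexp with quantile normalization (-0.999).

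Cyp2e1, which oxidises ethanol, acetone and fatty acids, was the only family 2 gene at least 2-fold higher in both genotypes. It had a relative signal of 3.07 in KO DSS, 1.57 in WT DSS, 0.318 in KO naive and 0.3 in WT naive (probe at chr7:147960628-147960687, mm9). The gene was 9.62-fold higher in KO and 5.22-fold higher in WT. A second probe gave log2 ratios of 2.98 in KO and 1.94 in WT. Adipocyte markers moved in the same direction: the summed signal of the 7 measured markers was 30.9 in KO DSS, 30.9 in WT DSS, 6.38 in KO naive and 5.82 in WT naive, with Lep not measured, and Cfd the brightest. Between genotypes with DSS, Cyp2e1 had a log2 ratio of 0.97 and these markers a median of -0.21. The part of adipocytes in the Cyp2e1 result was not tested. Hepatocytes are another site of Cyp2e1. Of their markers, Alb had 0.00933 in KO DSS, 0.0238 in WT DSS, 0.0284 in KO naive and 0.0295 in WT naive, and was dim on 1 array, and Apoa1 was not measured. Apoa2, the brightest, had 1.43 in KO DSS, 1.67 in WT DSS, 2.35 in KO naive and 2.55 in WT naive, and Ttr had 0.411 in KO DSS, 0.818 in WT DSS, 1.69 in KO naive and 2.02 in WT naive. These were the 3 of 7 measured hepatocyte markers with a log2 ratio below 0, in KO and in WT, and the others lay above 0. The median over the 7 was 0.25 in KO and 0.01 in WT. Over the 7 of 8 hepatocyte markers measured, the summed signal was 2.95 in KO DSS, 3.5 in WT DSS, 4.93 in KO naive and 5.38 in WT naive. The part of hepatocyte-type cells in the Cyp2e1 result was not tested.

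Cyp2a4, a steroid 15-alpha-hydroxylase of mouse, had 0.0848 in KO DSS, 0.0176 in WT DSS, 0.0261 in KO naive and 0.0265 in WT naive. It was 3.25-fold higher in KO DSS and 1.51-fold lower in WT DSS, but its other probe did not repeat this: it was well above background only in WT DSS, at 0.0208, and in KO naive, at 0.0183, and dim in KO DSS, at 0.0106, and in WT naive, at 0.016. Cyp2a22 was well above background in KO naive alone, at 0.0229. Other family 2 genes stayed near naive levels. The 4 measured Cyp2j genes, epoxygenases of arachidonic acid, had log2 ratios from -0.07 to 0.17 in KO and from -0.29 to 0.32 in WT. Cyp2u1, a hydroxylase of long-chain fatty acids, had 13.8 in KO DSS, 13.6 in WT DSS, 17.7 in KO naive and 13.7 in WT naive, so that KO naive was the highest pool. Its probes disagreed in level. Another was far dimmer, at 0.0577 in KO DSS and 0.101 in WT naive, with log2 ratios of -0.47 in KO and -0.35 in WT. The probe designed on the RefSeq transcript was not well above background on any array, with at most 0.0112. Cyp2r1, the vitamin D 25-hydroxylase of liver, had log2 ratios of -0.58 in KO and -0.06 in WT, and 0.34 and 0.76 by its other probe. Cyp2t4 and Cyp2w1 stayed within 1.5-fold.

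**Figure D3:**
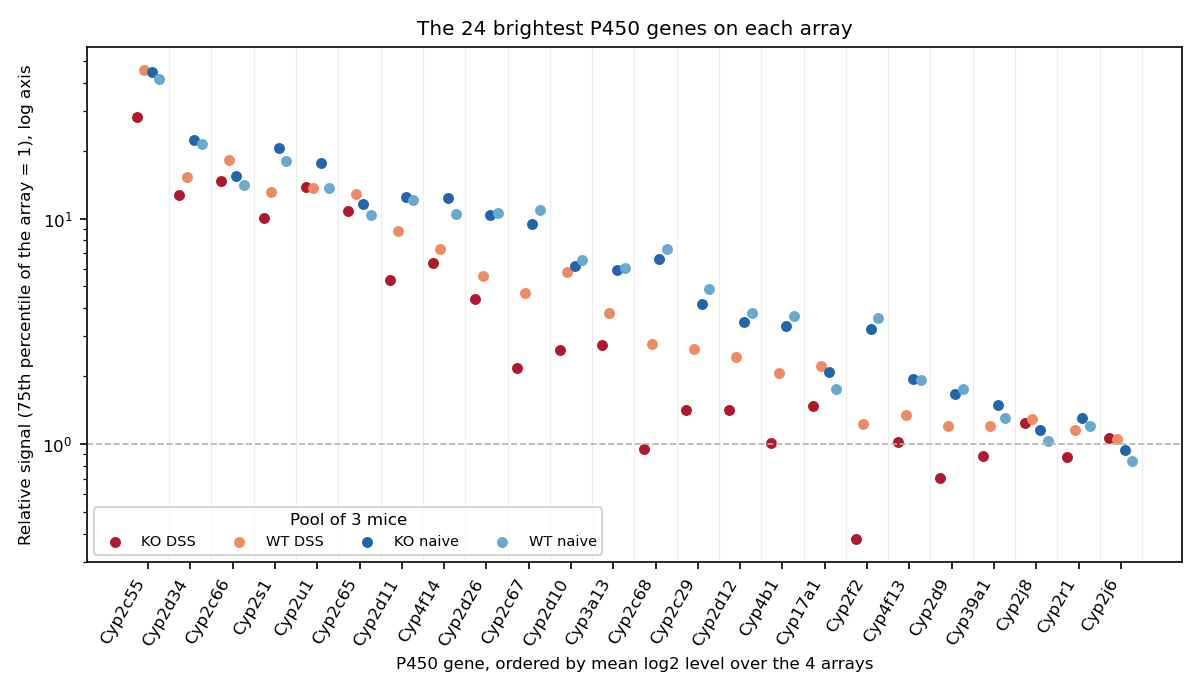
Relative signal on a log axis is plotted for the 24 P450 genes with the highest mean log2 signal, with 1 point per pool: KO DSS, WT DSS, KO naive and WT naive from left to right in each column. KO DSS is the lowest pool for most of these genes, as for Cyp2f2 at 0.38 and Cyp2c68 at 0.95; order between genes reflects probes as well as transcripts.

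Family 3 enzymes, broad oxidisers of drugs and steroids, showed less movement. Of 8 genes, all on chromosome 5, 1 was at least 2-fold lower in KO DSS (4.99% of all genes) and 1 at least 2-fold higher in WT DSS (3.41%). These counts are too small to set against those shares. Cyp3a13, the form long known from mouse intestine, had 2.76 in KO DSS, 3.83 in WT DSS, 5.92 in KO naive and 6.04 in WT naive. It was 2.15-fold lower in KO and 1.58-fold lower in WT, and its other probe gave log2 ratios of -1.60 in KO and -0.84 in WT. Cyp3a41b had 0.0383 in KO DSS, 0.0416 in WT DSS, 0.0291 in KO naive and 0.0198 in WT naive, the last not well above background, so that WT DSS was at least 2.1-fold higher than WT naive. Cyp3a44 had a log2 ratio of 0.999 in WT, just under the threshold. Its probe matched that of Cyp3a41b in 46 of 53 overlapping bases, and the signals of this pair may not be separate. Cyp3a11, a main target of the receptor PXR, had log2 ratios of -0.95 in KO and -0.18 in WT. Cyp3a16 had 0.68 in KO and 0.89 in WT, and Cyp3a25, Cyp3a57 and Cyp3a59 ranged from -0.30 to 0.08 in KO and from -0.46 to -0.19 in WT.

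Family 4, whose enzymes oxidise fatty acids and leukotrienes, had 11 of 14 genes below 0 in each genotype. Of all 22173 genes, 13699 were below 0 in KO and 11545 in WT. Of the 14, 2 were at least 2-fold lower in KO DSS (4.99% of all genes) and 2 at least 2-fold higher (5.67%). In WT DSS 0 passed 2-fold, where 5.22% of all genes were lower and 3.41% higher. These counts are too small to set against those shares. Cyp4b1, which oxidises fatty acids and activates some toxins, had 1.01 in KO DSS, 2.07 in WT DSS, 3.33 in KO naive and 3.7 in WT naive. It was 3.3-fold lower in KO and 1.79-fold lower in WT. Cyp4f14, a leukotriene B4 hydroxylase, had 6.32 in KO DSS, 7.34 in WT DSS, 12.3 in KO naive and 10.5 in WT naive. Its log2 ratios of -0.96 in KO and -0.52 in WT were close to those of its neighbours Cyp4f13, Cyp4f16 and Cyp4f17, which ranged from -0.94 to -1.10 in KO and from -0.50 to -0.67 in WT. These 4 lie on chromosome 17. Cyp4f40 had log2 ratios of 0.49 in KO and 0.11 in WT, Cyp4f41-ps -0.47 in KO and -0.59 in WT, and Cyp4v3, a fatty acid hydroxylase, -0.34 in KO and -0.62 in WT.

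Cyp4f18 lies apart, on chromosome 8, and is known in mouse as the leukotriene B4 hydroxylase of neutrophils. It had 1.87 in KO DSS, 0.818 in WT DSS, 0.793 in KO naive and 0.669 in WT naive. KO DSS alone was high: it was 2.36-fold above KO naive, and WT DSS was 1.22-fold above WT naive. A second probe gave log2 ratios of 1.08 in KO and 0.29 in WT. Of 7 measured neutrophil markers, 4 were at least 2-fold higher with DSS in KO and 5 in WT, while Csf3r, the brightest, had log2 ratios of -0.43 in KO and -0.70 in WT. The median log2 ratio of the 7 was 5.21 in KO and 3.45 in WT, with only 3 of them well above background on all 4 arrays. Their summed signal was 70.2 in KO DSS, 32.2 in WT DSS, 42.4 in KO naive and 35.1 in WT naive, and Ngp was not measured. Csf3r made up most of the naive sums, at 39.3 in KO naive and 32.4 in WT naive. The part of neutrophils in the Cyp4f18 result was not tested. Cyp4f39, an omega-hydroxylase that the skin barrier depends on, had 0.0464 in KO DSS and 0.0122 in WT DSS, against 0.0117 in KO naive and 0.0133 in WT naive, both dim, so that KO DSS was at least 3.01-fold above KO naive. The 4 measured Cyp4a genes, targets of PPARA that hydroxylate fatty acids, had log2 ratios from -0.62 to -0.19 in KO and from -0.14 to 0.07 in WT. Another Cyp4a31 probe did not repeat this. That probe was well above background in WT DSS alone, at 0.0996, beside 0.00373 in WT naive. The probes used for Cyp4a31 and Cyp4a10 matched in 44 of 47 overlapping bases.

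Among genes of sterol and bile acid metabolism, Cyp7b1, which hydroxylates oxysterols such as 25-hydroxycholesterol, was higher in KO DSS. It had 0.532 in KO DSS, 0.193 in WT DSS, 0.15 in KO naive and 0.149 in WT naive (probe at chr3:17972286-17972345, mm9). KO DSS stood above the other 3 pools, 3.54-fold over KO naive, while WT DSS was 1.3-fold over WT naive. Fibroblast markers had a median log2 ratio of 1.15 in KO and -0.02 in WT over all 8, with a summed signal of 143.7 in KO DSS, 82.3 in WT DSS, 62.7 in KO naive and 78.2 in WT naive. The part of fibroblasts in the Cyp7b1 result was not tested. Cyp27a1, the sterol 27-hydroxylase of mitochondria, had 0.0742 in KO DSS, 0.0769 in WT DSS, 0.0914 in KO naive and 0.121 in WT naive. Cyp39a1, an oxysterol hydroxylase, had log2 ratios of -0.76 in KO and -0.11 in WT. Cyp46a1, the cholesterol 24-hydroxylase best known from neurons, had 0.17 in KO DSS, 0.212 in WT DSS, 0.203 in KO naive and 0.192 in WT naive, all within 1.5-fold. Cyp7a1 and Cyp8b1, the liver enzymes of bile acid synthesis, were not well above background on any array.

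Steroid hormone genes gave few signals. Cyp17a1, which makes precursors of androgens and cortisol-type steroids, had 1.47 in KO DSS, 2.21 in WT DSS, 2.08 in KO naive and 1.74 in WT naive, so that DSS went with a lower level in KO (-0.50) and a higher one in WT (0.34). Cyp11b1, the last enzyme of corticosterone synthesis, was well above background in WT naive alone, at 0.0419, compared with 0.00657 in KO DSS, 0.00238 in WT DSS and 0.00796 in KO naive. WT DSS was at least 3.7-fold lower than WT naive, and KO naive at least 2.72-fold lower than WT naive. Cyp21a1, the steroid 21-hydroxylase, stayed within 1.5-fold. Cyp11a1, which starts steroid synthesis, Cyp11b2 and Cyp19a1 were not well above background. Star, which brings cholesterol into mitochondria for steroid synthesis, had 0.0262 in KO DSS, 0.0242 in WT DSS, 0.0245 in KO naive and 0.0249 in WT naive.

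Cyp26b1, which breaks down retinoic acid, had 0.236 in KO DSS, 0.123 in WT DSS, 0.213 in KO naive and 0.297 in WT naive. WT DSS was the low pool, 2.42-fold below WT naive, while KO DSS was 1.11-fold above KO naive. The sister genes Cyp26a1 and Cyp26c1 were not well above background. Cyp1b1, a family 1 enzyme of stromal cells and a target of the aryl hydrocarbon receptor, had 0.0631 in KO DSS, 0.0161 in WT DSS, 0.00416 in KO naive and 0.00455 in WT naive, with both naive signals dim. KO DSS was at least 4.09-fold above KO naive. Cyp1a1 and Cyp1a2, the other P450 genes of family 1 on the array, were not well above background. Cyp20a1, an orphan enzyme, had log2 ratios of 0.31 in KO and 0.18 in WT, and -0.72 and -1.65 by its other, dimmer probe. The 23 genes not measured had relative signals of at most 0.0192.

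Between genotypes with DSS, 9 of 69 P450 genes were at least 2-fold lower in KO DSS than in WT DSS, against 2.2% of all genes, and 5 were at least 2-fold higher, against 5.09%. The lower genes were Cyp2f2, Cyp2c39, Cyp2c68, Cyp2d13, Cyp2d10, Cyp2c54, Cyp2c37, Cyp2c67 and Cyp4b1. Their log2 ratios ran from -1.69 for Cyp2f2 to -1.03 for Cyp4b1. The higher genes were Cyp2a4 (2.27), Cyp1b1 (1.97), Cyp4f39 (1.93), Cyp7b1 (1.46) and Cyp4f18 (1.19). This comparison shares its arrays with the DSS responses above, and so is no separate evidence for them. The median log2 ratio of KO DSS over WT DSS was -0.90 for the 13 Cyp2c genes and -0.71 for the 10 Cyp2d genes, compared with -0.30 for all 69 members and -0.09 for all genes.

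In naive colon the genotypes were close. In KO naive over WT naive, 1 of 69 members was at least 2-fold lower, the dim Cyp11b1, against 1.05% of all genes, and 0 were higher, against 1.13%. The median log2 ratio was -0.03 for members and 0.02 for all genes. The median was -0.15 for the Cyp2c genes and -0.05 for the Cyp2d genes. The plot of genotype differences by subfamily shows the Cyp2c and Cyp2d genes spread around or just below 0 without DSS and mostly below 0 with it.

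**Figure D4:**
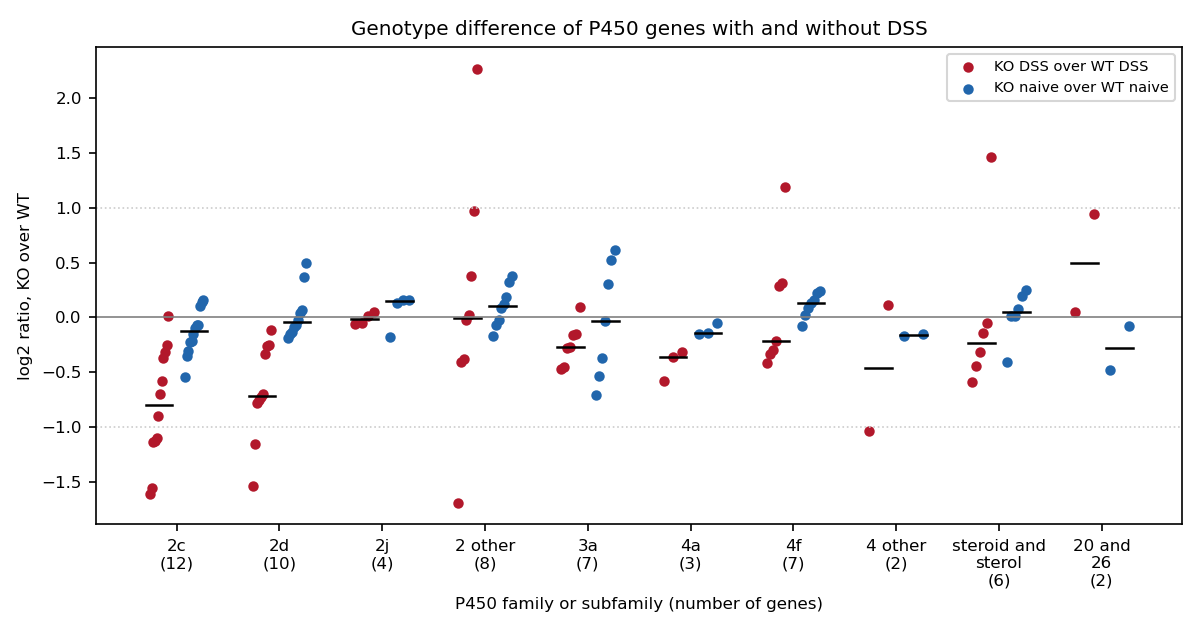
Each point is a P450 gene well above background on all 4 arrays, grouped by family or subfamily and sorted within each group, with the log2 ratio of KO over WT on the y axis for DSS pools (red, left) and naive pools (blue, right); short black lines are medians. With DSS, Cyp2c and Cyp2d genes reach -1.61 and -1.54, whereas in naive colon no gene plotted passes 2-fold.

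The additive limma fit tested the mean effect of DSS over both genotypes and of genotype over both treatments, with 1 residual degree of freedom. That degree of freedom is the difference of DSS responses between the genotypes. Its size, moderated by the variance over all genes, sets the SE and the p-values, and spread between mice is not measured. After Benjamini-Hochberg adjustment over all genes, 0 of 69 members and 0% of all genes passed an adjusted p of 0.05 for DSS. The smallest adjusted p in this limma fit was 0.20, for Cyp2e1, with a mean log2 change of 2.83 ± 0.29 (SE), higher with DSS in both genotypes. At an unadjusted p of 0.05, 29 members (42.0%) passed the limma test, compared with 18.5% of all genes; 25 were lower (12% of all genes) and 4 higher (6.51%). Restricted to probes well above background on all 4 arrays, the same fit called 13 of 61 members, where 5.62% of genes were called; 12 were lower (3.31% of genes) and 1 higher (2.31%). With a trended, robust variance it called 18 of 69, where 6.91% of genes were; 17 were lower (4.13% of genes) and 1 higher (2.79%). Cyp2e1 was the higher gene in both. Cyp2c29, Cyp2c37, Cyp2c39, Cyp2c44, Cyp2c54, Cyp2c67, Cyp2c68, Cyp2d26, Cyp2d37-ps, Cyp2d40, Cyp2f2 and Cyp4b1 were the lower genes in the first. For genotype, 0 members passed in the main fit, in the fit restricted to measured probes (0% of genes each) or with the robust variance (0.0316% of genes), and 2 reached an unadjusted p of 0.05 in the main limma fit, Cyp2c54 and Cyp2c50, compared with 3.85% of all genes. In simulated data the main fit recovered 0% of 50 genes changed by log2 2 and 72% of 50 changed by log2 4 for DSS. It also made 6 false calls there. The simulated noise was drawn from the variance that the fit itself had estimated. These shares therefore do not give the power of the fit in the real data.

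Genes that work with P450 enzymes were read from lists chosen for their roles. Of 11 electron donor and haem genes, 1 was at least 2-fold higher in each genotype (5.67% of all genes in KO and 3.41% in WT). As for lower genes, 0 passed 2-fold (4.99% of all genes in KO and 5.22% in WT). These counts are too small to set against those shares. The higher gene was Hmox1, which degrades haem, with log2 ratios of 1.82 in KO and 1.08 in WT. Por, the P450 oxidoreductase, had 10.3 in KO DSS, 12.9 in WT DSS, 14.7 in KO naive and 13.4 in WT naive. Fdxr, the ferredoxin reductase of mitochondria, had log2 ratios of -0.77 in KO and -0.25 in WT. Por and Fdxr therefore stayed within 2-fold in both genotypes.

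Of 19 measured receptors and regulators that sense foreign compounds and bile acids, 3 were at least 2-fold lower in KO DSS (4.99% of all genes) and 1 in WT DSS (5.22%), and 0 were higher. The WT count is near the share of all genes. Nr1i3, which encodes CAR, the receptor for Cyp2b and Cyp2c induction, was lower in both. It had a relative signal of 0.019 in KO DSS, 0.0534 in WT DSS, 0.145 in KO naive and 0.168 in WT naive, log2 ratios of -2.93 in KO and -1.65 in WT. Whether Nr1i3 plays a part in the P450 values was not tested. Vdr, the vitamin D receptor, had log2 ratios of -1.23 in KO and -0.72 in WT, and Ppara, a fatty acid receptor, -1.03 in KO and -0.63 in WT. Nr1i2, which encodes PXR, had -0.36 in KO and 0.02 in WT, and Ahr, the aryl hydrocarbon receptor, -0.05 in KO and -0.34 in WT. Hnf4a had 34.9 in KO DSS, 44.9 in WT DSS, 49.6 in KO naive and 46.3 in WT naive. Nr1i3 was the receptor furthest from naive in both genotypes.

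Enzymes that act on P450 products or handle their substrates were read in the same way. Past 2-fold, 5.67% of all genes were higher and 4.99% lower in KO, and 3.41% were higher and 5.22% lower in WT. Among 10 epoxide and aldehyde enzymes, 2 were at least 2-fold higher and 1 lower in KO, and 1 was higher in WT. Aldh1a3, which makes retinoic acid, had log2 ratios of 2.13 in KO and 1.93 in WT, and Aldh1a1, which has the same activity, -1.32 in KO and -0.36 in WT. Ephx1, the microsomal epoxide hydrolase, had -0.83 in KO and -0.66 in WT. Among 14 retinoid genes, 2 were higher and 2 lower in KO, and 1 was higher and 1 lower in WT, counts too small to set against those shares. Dhrs9, a retinol dehydrogenase, had log2 ratios of 2.14 in KO and 2.05 in WT. Rbp2, the retinol carrier of absorptive cells in the intestine, had -2.10 in KO and -0.93 in WT. Lrat, which stores retinol as esters, had -1.60 in KO and -1.10 in WT. Among 11 measured steroid and bile acid partners, 1 was higher in KO, Hsd11b1, which regenerates active glucocorticoid, at 2.29 in KO and 0.55 in WT, and 0 were lower in either genotype.

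Epithelial and muscle markers were read beside these values. The 12 absorptive colonocyte markers had a median log2 ratio of -0.70 in KO and 0.11 in WT, with 12 of 12 below 0 in KO and 5 of 12 in WT. Their summed signal was 369.8 in KO DSS, 548.6 in WT DSS, 607.4 in KO naive and 514.6 in WT naive, and Guca2a was the brightest. The 8 goblet cell markers had a median of -0.31 in KO and 0.15 in WT, and the 7 smooth muscle markers -0.93 in KO and -0.21 in WT. The Cyp2d genes had medians of -1.24 in KO and -0.60 in WT, and the Cyp2c genes -1.56 in KO and -0.88 in WT. Only the lowest colonocyte markers were as low as many of these genes. Slc26a3, a chloride exchanger, had log2 ratios of -2.01 in KO and -1.21 in WT, and Slc9a3, a sodium exchanger, -1.57 in KO and -0.59 in WT. At the other end of the list, Epcam had -0.17 in KO and 0.17 in WT, and Krt20 -0.31 in KO and 0.46 in WT. The part of epithelial cell number in the P450 result was not tested.

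**Figure D5:**
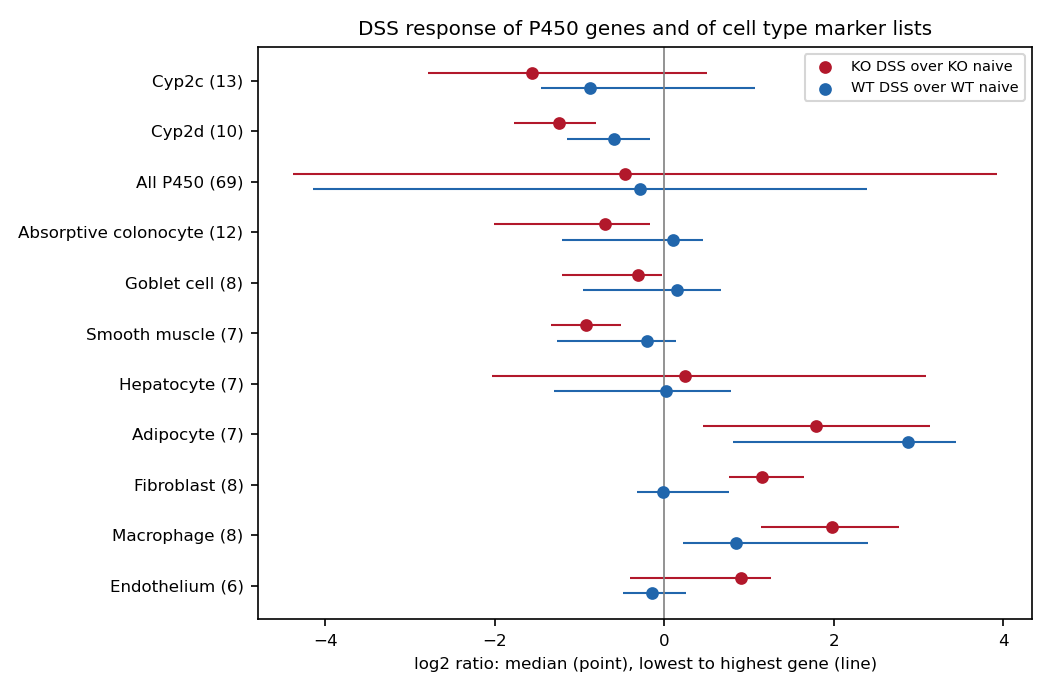
Median log2 ratio of DSS over naive (points) with the lowest and highest gene (lines) for the P450 genes and for 8 cell type marker lists, KO in red above WT in blue, with the number of genes measured in brackets. In KO the colonocyte median is -0.70 and the Cyp2c median -1.56; in WT these are 0.11 and -0.88.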

How the data were processed

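Colon RNA of KO DSS, WT DSS, KO naive and WT naive mice was labelled from 200 ng of total RNA, 1 array per group, per the labels' protocols. The deposited scanner files hold an intensity for each spot, after background subtraction and detrending by Agilent Feature Extraction 11.5.1.1, per the submitters' processing notes. The deposited value table holds a signal that equals this intensity divided by 1 number per array, close to the 75th percentile, as found from the values themselves. Probe coordinates are mm9, per the file headers, and the 4 arrays shared a slide and a scan date. The number of arrays limits the precision.

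Control spots and outlier flags were left out. Processed signals were divided by the 75th percentile of the array, repeat spots were averaged on the log2 scale, and 28734 of 39429 probes were kept, those well above background on 1 array or more. A gene was read by its brightest kept probe, and 14 P450 genes had several. Of 117 P450 probes, 114 carried the same symbol in the RefSeq gene table of GRCm38.p6. A gene counted as past 2-fold had to be well above background where it was higher, and a dim value on the other array was replaced by the lowest well-measured signal there, unless it was itself higher. The fit and the medians used the measured dim signals. The additive fit used limma 3.58.1 in R 4.3.3 (lmFit and eBayes, treatment plus genotype, all genes, Benjamini-Hochberg), and was tested on simulated data. Alternatives were median scaling, quantile normalization, normexp with an offset of 50 and quantile normalization, probes well above background on all arrays, the mean of probes, the value table, measured dim signals without bounds, a 1.5-fold threshold and a trended, robust variance. The members and the lists were chosen with earlier results of these data known. Values on every array are given for the 8 members with the highest mean signal, the 6 highest and 6 lowest past 2-fold in each comparison, the 6 largest differences of response in each direction, and families 1, 7, 11, 26, 27 and 46. Of each partner list, up to 4 genes with the largest ratio were named. Others were chosen after their values were seen. A result for 1 partner gene is not reported here.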

Additional observations from a re-analysis of the deposited data

Results flagged for a closer look

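Of the 69 P450 genes, 2 moved in opposite directions with DSS in the 2 genotypes, by more than 2 SDs of repeat spots in each (0.189 on the log2 scale in KO and 0.198 in WT). Repeat spots leave out differences between mice. The share of all genes that meet this rule is not given, so the count is a description only. Cyp17a1 had a log2 ratio of -0.50 for KO DSS over KO naive and of 0.34 for WT DSS over WT naive. Cyp2a4 had 1.70 in KO and -0.59 in WT. Its other probe was dim in KO DSS, at 0.0106, beside 0.0183 in KO naive. It was also dim in WT naive, at 0.016, beside 0.0208 in WT DSS. That probe thus pointed the other way in both genotypes, by less than 2-fold. With 1 array per group, the difference between the genotypes was not tested for either gene.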

How the results depend on the processing

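No paired analysis was possible because each group holds 1 array. No named call changed direction under the alternatives run. The count of members at least 2-fold higher in WT DSS (2) became 4 with median scaling, quantile normalization, measured dim signals or a 1.5-fold threshold, and 1 with normexp or with probes well above background on all arrays. At 1.5-fold, 23 members were lower in WT DSS (12.97% of all genes) and 16 were lower in KO DSS than in WT DSS (5.60%). With probes well above background on all arrays, 3 were higher in KO DSS than in WT DSS. In naive pools, with 3.14% of all genes past 1.5-fold upward in KO and 2.29% downward, 1 member was higher in KO without bounds or at 1.5-fold, and 0 (normexp, or probes well above background on all arrays) or 2 (1.5-fold) were lower. The limma fit for DSS called 0 members in the main setting, 13 when limited to probes measured on all arrays, and 18 with a trended, robust variance. The cause of these changes was not tested, beyond the fewer genes and fewer dim values of the stricter filter. Of the calls named, 10 were lost with normexp and quantile normalization, 4 with the mean of probes, 2 with quantile normalization and 2 with median scaling. Median scaling moved the median of all genes in WT from -0.02 to 0.12, and members lay 0.27 below it in both (-0.27). In WT DSS it gave 4 members higher and 10 lower, quantile normalization 4 and 11, and the main setting 2 and 11. Over all genes in WT DSS, the main setting gave 756 higher and 1158 lower, median scaling 954 and 842, quantile normalization 852 and 930, and normexp 554 and 493. In KO DSS the main setting gave 1257 and 1106, and normexp 966 and 545. Signal over background limits the dim genes: 8 members were not well above background on every array.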
